A study of Xenopus tropicalis with 12 samples.

Results

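The regions described here were bound by thyroid hormone receptor (TR) in the hind limb of TRα (-/-) Xenopus tropicalis tadpoles and did not count as bound in wild-type hind limb. They were chosen by peak calls. Overlapping peaks of 12 ChIP-seq libraries (1 bp or more in common) were joined into 189159 regions. For each condition a region was called bound if 2 or all 3 libraries showed a peak in it. Of the 22074 regions bound in either genotype, 2785 (12.6%) were bound in TRα (-/-) hind limb, with or without T3, and in neither wild-type condition; they are called knockout-only regions below. They made up 19.9% of the 13966 regions bound in the knockout, and the other 11181, bound in both genotypes, are called shared regions. Since the rule allows up to 1 peak in each wild-type condition, "knockout-only" describes the count of libraries and not an absence of wild-type peaks.

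Hind limbs came from TRα (-/-) and wild-type offspring of the same parents at around stage 54, the onset of metamorphosis. Each genotype was kept without thyroid hormone (T3) or given 10 nM T3 for 18 h, which gave 4 conditions: TRα (-/-) with T3, TRα (-/-) without T3, wild type with T3 and wild type without T3. Chromatin of several pooled tadpoles was precipitated with an antibody against TR. The 3 libraries of a condition are technical replicates, so the spread between them holds no variation between animals, and genotype or treatment differences cannot be told apart from differences between chromatin pools.

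TRs bind DNA at thyroid hormone response elements, mostly as heterodimers with the retinoid X receptor, and stay on chromatin with and without hormone. Without T3 the receptor recruits corepressors to hormone-inducible genes, and with T3 it recruits coactivators. Frogs have a TRα and a TRβ gene, so that TR found on chromatin of TRα (-/-) tadpoles is presumably TRβ, whose own gene is induced directly by T3. TRα is the more abundant receptor in the hind limb before metamorphosis, and its loss alters the timing of limb development.

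The deposited lists hold peaks and no reads between them, so a library without a peak in a region has no value there, and a weak signal under the calling threshold looks the same as none. The TRα (-/-) libraries held 940383 to 2851627 fragments with T3 and 834029 to 3000220 without T3, against 1055706 to 2307377 in wild type with T3 and 3080104 to 6119057 in wild type without T3. The mean depth of the knockout was thus 1.08 times that of wild type with T3 and 0.406 times without T3. The lowest summit pileup called as a peak, in overlapping fragments, ran between 2 and 4 in the knockout lists and between 2 and 5 in the wild-type lists. The TRα (-/-) library without T3, replicate 2, stands apart with 4645 peaks, against 19088 to 42421 in the other 11 lists.

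Most knockout-only regions were bound in the presence of T3 alone. Of the 2785 regions, 2054 (73.8%) were bound only with T3, 584 (21.0%) only without T3 and 147 (5.28%) under both treatments. Over all 13966 regions bound in the knockout these shares were 46.4% with T3 only, 11.5% without T3 only and 42.0% under both. Constitutive binding was thus the rarest class among knockout-only regions, which took 2.503% of the knockout regions bound under both treatments, against 31.7% of those bound with T3 only and 36.2% of those bound without T3 only. The treatment split depended on the length of the lists. When every list was cut to its best 4645 peaks, 1178 knockout-only regions were found, of which 468 were bound only with T3, 577 only without T3 and 133 under both, so that the T3-only class was no longer the largest. The smaller classes also rested on few libraries. Without TRα (-/-) replicate 1 or 3 of the libraries without T3, the regions bound only without T3 numbered 97 or 48, and those bound under both treatments 18 or 14. Both remaining libraries must then have a peak, and 1 of them is the short list of replicate 2. Without replicate 2 of the same condition, the 2 classes numbered 477 and 127. Regions bound under both treatments numbered 52 to 88 without 1 of the TRα (-/-) T3 libraries and 257 to 320 without 1 of the wild-type libraries without T3.

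**Figure D1:**
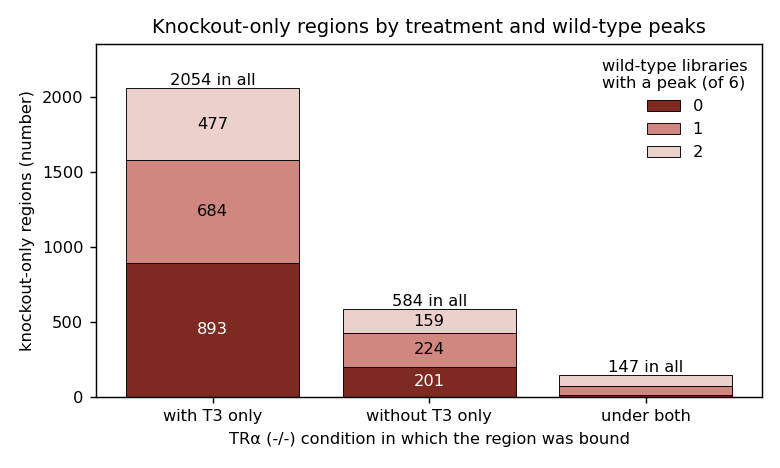
Number of knockout-only regions (vertical axis) by the TRα (-/-) condition in which they were bound (horizontal axis), divided by the number of the 6 wild-type libraries with a peak. The 2054 regions bound with T3 only are the tallest bar, and of the 147 bound under both treatments 11 had no wild-type peak, 59 had 1 and 77 had 2.

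A wild-type peak lay in most knockout-only regions. No wild-type library had a peak in 1105 regions (39.7%), 1 library had one in 967 (34.7%) and 2 libraries in 713 (25.6%), by the rule always 1 with T3 and 1 without. In all, 1680 regions (60.3%) had at least 1 wild-type peak. Regions bound with T3 only had no wild-type peak in 893 of 2054 cases (43.5%), those bound without T3 only in 201 of 584 (34.4%) and those bound under both treatments in 11 of 147 (7.48%). Whether the wild-type peak follows the treatment of the knockout cannot be read from these regions. The rule takes out every region bound in a wild-type condition, and the wild-type libraries without T3 were deeper. Among regions bound with T3 only, 38.5% had a wild-type peak with T3 and 41.3% one without T3. Among regions bound without T3 only, 43.7% had a wild-type peak with T3 and 49.1% one without T3.

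Counted by library, the knockout-only regions were more numerous in the T3 lists. The TRα (-/-) libraries with T3 had a peak in 1509, 1614 and 1747 of them (replicates 1, 2 and 3), against 809, 167 and 1019 in the TRα (-/-) libraries without T3. The groups did not overlap. The means were 1623 ± 119 with T3 and 665 ± 444 without T3 (SD, n = 3 each), a difference of 958 regions. No test is given for these counts, since peak calls of the same libraries chose the regions. With every list cut to 4645 peaks the difference was -68.3 regions. As a share of all regions of the library, the values overlapped. They were 3.99%, 5.80% and 7.0% with T3, against 4.35%, 3.71% and 5.03% without T3, with a difference of 1.23 percentage points.

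The wild-type libraries with T3 had a peak in 265, 359 and 515 knockout-only regions, against 379, 332 and 543 in those without T3. These ranges overlapped, with a difference of -38.3 regions. It was 97.2 regions without wild-type T3 replicate 1, 63.0 without replicate 2 and 0.5 without replicate 3. This change of sign follows at least in part from the rule and is no check of the difference. With 1 library out, both others must have a peak, so more regions with a wild-type T3 peak enter (3080 to 3212 knockout-only regions). Without 1 of the wild-type libraries without T3 the difference moved the other way, to between -284.8 and -225.2. As a share of the library's own regions the values were 0.635%, 1.11% and 1.31% with T3, against 1.33%, 1.45% and 2.33% without T3 (difference -0.685 percentage points), and did not overlap. The regions by which these shares divide numbered 32274 to 41739 per library with T3, against 22906 to 28512 without T3. The gap in the shares thus goes with longer T3 lists, while the counts overlapped. The rule itself caps the wild-type peaks at 1 per condition in each region. Replicate 3, the deepest wild-type library of each treatment, had the highest count in both.

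**Figure D2:**
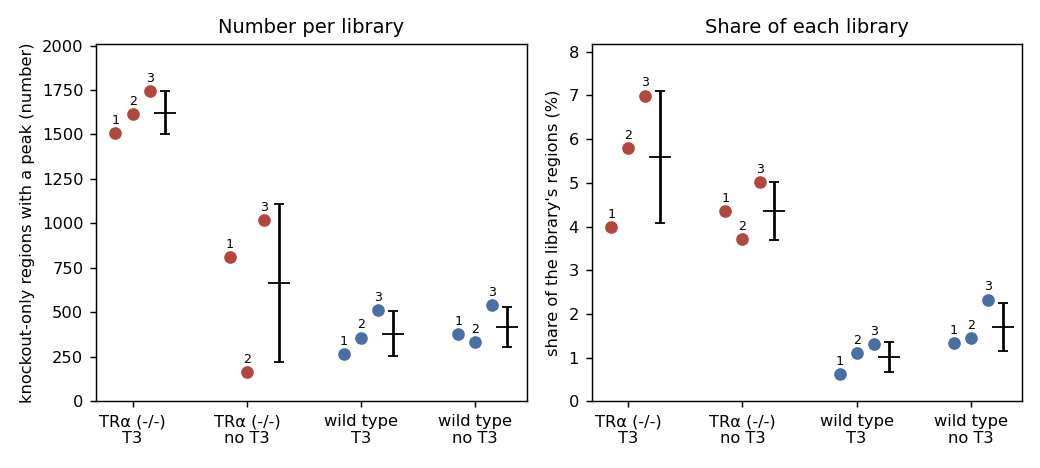
Knockout-only regions with a peak in each of the 12 libraries, as a number (left) and as a percentage of all regions of that library (right). Points are libraries with their replicate number, and the bar beside them is the mean with its SD (n = 3). In numbers the 3 TRα (-/-) T3 libraries (1509 to 1747) lie above all others, and as a share they overlap with the TRα (-/-) libraries without T3.

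Support within the knockout was thin. Exactly 2 of the 6 knockout libraries had a peak in 1754 regions, 3 in 802, 4 in 198, 5 in 27 and all 6 in 4. At least 4 knockout libraries had a peak in 229 knockout-only regions (8.22%), against 6938 of the shared regions (62.1%). The mirror set, the 8108 regions bound in wild type and not in the knockout, had 2396 regions (29.6%) with a peak in at least 4 wild-type libraries. Of the 2201 knockout-only regions bound with T3, 203 (9.22%) had a peak in all 3 T3 libraries, against 46.8% of all knockout regions bound with T3. Of the 731 bound without T3, 25 (3.42%) had a peak in all 3 libraries without T3, against 31.8% of all knockout regions bound without T3. The short list of replicate 2 without T3 enters the last count and also limits how many regions reach 4 knockout libraries. Of the 731 regions, 579 (79.2%) rested on replicates 1 and 3 alone, against 3802 (56.3%) of the shared regions bound without T3.

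With T3, the knockout-only regions were spread over all pairs of libraries. Replicates 1 and 2 alone gave 589 regions, replicates 1 and 3 gave 656 and replicates 2 and 3 gave 753. Replicate 1 with 1 other library supported 1245 of the 2201 T3-bound regions (56.6%), against 18.4% of the shared regions bound with T3. In 844 of these 1245 regions (67.8%) the pileup in replicate 1 was 2 or 3 fragments. Such low pileups were common in that list as a whole. Of its 37838 regions 27950 were bound in no condition, with a median pileup of 2 there, against 5 in shared regions. Replicate 1 was the shallowest of the 3 T3 libraries and had the longest list. Without it the knockout-only regions numbered 1599, of which 868 were bound only with T3 and 511 had no wild-type peak. Leaving out either of the other T3 libraries lowered the count by a similar amount. It was 1525 without replicate 2, with 794 bound only with T3 and 515 with no wild-type peak, and 1471 without replicate 3, with 740 and 565 such regions.

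The regions with the best support in the knockout were those most often seen in wild type. The share with no wild-type peak was 51.5% among regions of 2 knockout libraries (903 of 1754), 22.2% among those of 3 (178 of 802), 11.1% among those of 4 (22 of 198) and 7.41% among those of 5 (2 of 27). None of the 4 regions seen in all 6 knockout libraries lacked a wild-type peak. Thus 24 regions (0.862% of the knockout-only regions) combined at least 4 knockout libraries with no wild-type peak. In the mirror set 492 regions (6.07%) had at least 4 wild-type libraries and no knockout peak. The short list of TRα (-/-) replicate 2 without T3 makes 4 knockout libraries harder to reach. Many regions of one treatment class also had a peak under the other treatment. A single library of the other treatment had a peak in 508 of the 2054 regions bound with T3 only (24.7%) and in 265 of the 584 bound without T3 only (45.4%), against 63.2% and 77.2% of the shared regions of the same classes.

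**Figure D3:**
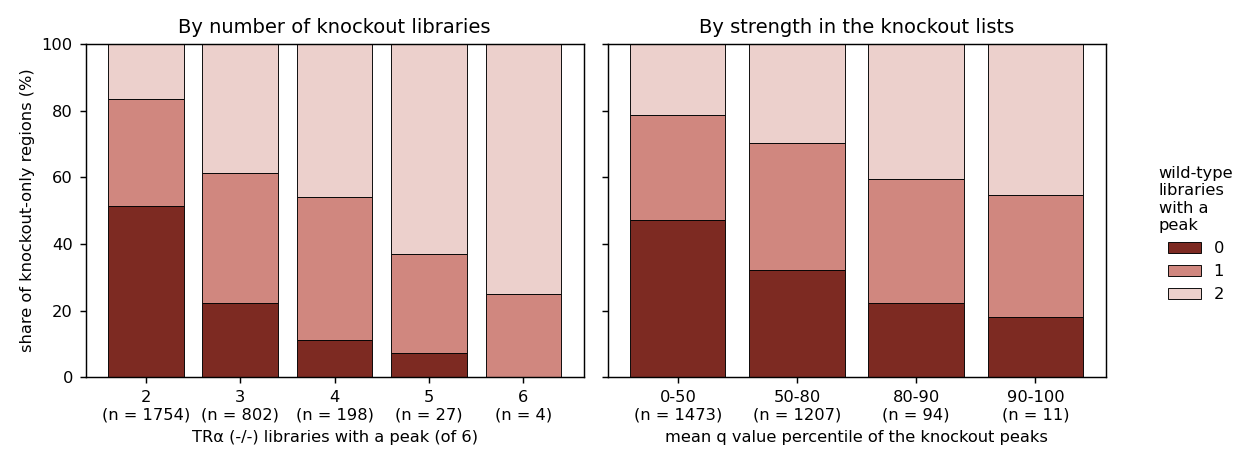
Share of knockout-only regions (percent, vertical axis) with a peak in 0, 1 or 2 wild-type libraries, by the number of TRα (-/-) libraries with a peak (left) and by the mean q value percentile of the knockout peaks within their lists (right), with the number of regions below each bar. The share with no wild-type peak is 51.5% at 2 knockout libraries and 7.41% at 5, and it is 47.2% in the weakest class and 18.2% in the strongest.

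Peaks of knockout-only regions were weaker and narrower than those of shared regions. The strength of a region was taken as the mean percentile of its knockout peaks when each list is ranked by q value, where 100 is the strongest. The median was 48.5 for knockout-only regions (quartiles 36.2 and 61.6), against 69.6 for shared regions. In the 3 TRα (-/-) T3 lists the best peaks of knockout-only regions had median percentiles of 60.0, 52.9 and 45.8. Regions bound in no condition lay lower there, at 32.8, 32.3 and 30.4. Merged regions were 585 bp wide in the median, against 931 bp for shared regions, but this width grows with the number of peaks joined. In the 3 TRα (-/-) T3 libraries the best peak of a region was 295, 340.5 and 382 bp wide in the median. In shared regions it was 482, 565 and 632 bp. In the 3 TRα (-/-) T3 libraries the median summit pileup of knockout-only regions was 3, 5 and 7 fragments, against 5, 8 and 12 in shared regions. The mirror set of regions bound in wild type only had similar values in its own T3 lists. In the 3 wild-type T3 libraries its median pileup was 3, 5 and 6 fragments and its best peak 287, 339 and 367 bp wide. Peaks weaker and narrower than those of shared regions were thus not particular to the knockout-only regions. Every knockout peak reached 10 fragments in 33 knockout-only regions (1.18%), against 977 shared regions (8.74%). These values stand without a test, since the same peak calls chose the regions.

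The median percentile was higher the more wild-type libraries had a peak, with 44.0 for regions with none, 50.8 for regions with 1 and 53.4 for regions with 2. Below the 50th percentile lay 1473 knockout-only regions, 43.8% of all knockout-bound regions of that strength. From the 50th to the 80th percentile there were 1207 (16.9%), from the 80th to the 90th 94 (4.58%) and above it 11 (0.780%). Of the 94 regions, 22.3% had no wild-type peak, and of the top 11, 2 had none. Thus the strongest TR-bound regions of the knockout were nearly all bound in wild type as well.

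Where a wild-type peak was present, its pileup was set beside the mean of the knockout peaks after both were scaled to 1000000 fragments per library. In knockout-only regions bound with T3, the wild-type T3 peak was at least as dense as the knockout peaks in 51.2% of 201 regions (wild-type replicate 1), 43.0% of 279 (replicate 2) and 30.4% of 404 (replicate 3). Without T3, where wild-type libraries were deeper, the same held for 12.5% of 112 regions, 1.89% of 106 and 1.06% of 188. A deeper library calls peaks at a lower scaled pileup, and the part of this in the contrast was not tested. The same peak calls chose these regions, with at most 1 peak per wild-type condition, so the shares also reflect the rule and carry no test. The lowest knockout pileup of each region was also scaled to the depth of the wild-type libraries of the same treatment. It reached the lowest called wild-type pileup in all 3 libraries for 1503 of the 2201 regions bound with T3 (68.3%). Without T3 this held for all 731 regions, which the depths fix beforehand, since any called knockout peak so scaled lies above those minima. The scaled pileup reached the median pileup of the wild-type lists in 391 regions with T3 (17.8%) and 557 without T3 (76.2%). The part of depth in these shares was not tested.

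The 5 best supported regions with no wild-type peak lay on 5 chromosomes, in coordinates of the Xenbase v9.1 genome. The first, chr10:28783106-28783587, had a pileup of 5, 8 and 10 fragments in TRα (-/-) replicates 1, 2 and 3 with T3 and of 7 and 16 in replicates 1 and 3 without T3. It was called in every knockout library but the one with the short list, with fold enrichments of 4.93 to 9.18 over the local background and summits within 18 bp of each other. Scaled to depth, these peaks lay between 3.51 and 5.33 per 1000000 fragments, so neither treatment stood apart.

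The region chr1:11493656-11494424 had 6, 23 and 15 fragments with T3 and 3 and 6 without T3 (replicates 1 and 3). The scaled pileups were 6.38, 12.6 and 5.26 with T3, against 1.88 and 2.00 without T3, so the T3 libraries were all higher. The region chr9:40334817-40335163 was bound only without T3, with a peak of 12 fragments in T3 replicate 1 alone, against 16, 8 and 31 fragments in the 3 libraries without T3. The scaled pileup was 12.8 in T3 replicate 1, against 10.0, 9.59 and 10.3 without T3, so that its peaks were of nearly even height. The other 2 regions, chr8:112967907-112969387 and chr4:132420137-132420667, had peaks of 4 to 18 fragments in 4 knockout libraries each, 2 per treatment.

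All 4 regions with a peak in every knockout library had one in wild type. In chr2:7894423-7895136 the pileups were 6, 13 and 18 fragments with T3 and 8, 8 and 14 without T3, against 10 in wild-type T3 replicate 2 and 15 in wild-type replicate 3 without T3. In chr8:115083315-115084504 they were 7, 16 and 14 fragments with T3 and 4, 3 and 8 without T3, against 9 in wild-type T3 replicate 1 and 11 in wild-type replicate 1 without T3. The knockout T3 peaks of this region, with scaled pileups of 4.91 to 8.73, took in the level of its wild-type T3 peak, 8.53. The third, chr5:37145569-37146934, had a peak in 2 wild-type libraries with 11 fragments with T3 and 14 without, and the last, chr5:144843034-144845063, in 1. Its summits were spread over 1498 bp, so that its peaks do not mark a single position. Knockout summits were spread over 970 bp in the third region and over 311 bp in chr8:115083315-115084504.

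Among regions bound only with T3, the best supported had all 3 T3 libraries and 1 of those without T3. The region chr8:5849961-5850869 had 4, 16 and 8 fragments with T3, against 4 in replicate 1 without T3, and no wild-type peak. Its knockout summits were spread over 604 bp. The region chr9:5335273-5336173 had 5, 11 and 11 with T3, against 7 in replicate 3 without T3, and wild-type replicate 3 without T3 had a peak of 10. The regions chr4:123852107-123853134 and chr7:5605422-5606093 had a peak in 2 wild-type libraries each. A peak without T3 in each of these 4 follows from the ranking, since 4 knockout libraries cannot be reached otherwise.

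Among regions bound only without T3, chr1:127980988-127981228 had 4 fragments in T3 replicate 1 and 9, 8 and 14 without T3, against 20 in wild-type replicate 3 without T3. Per 1000000 fragments its knockout peaks lay between 4.25 and 9.59, above the wild-type peak of 3.27. The region chr9:866364-866785 had a T3 peak of 15 fragments in replicate 2, against 9, 7 and 12 without T3, and wild-type peaks of 13 in T3 replicate 3 and 6 in replicate 1 without T3. The region chr2:12393628-12394027 had 9 fragments in T3 replicate 2, against 5, 5 and 15 without T3, and 11 in wild-type T3 replicate 3. Scaled to 1000000 fragments, the T3 peak of the last region was 4.91, against 3.13, 6.0 and 5.0 without T3, so that it lay within the range of the peaks without T3.

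**Figure D4:**
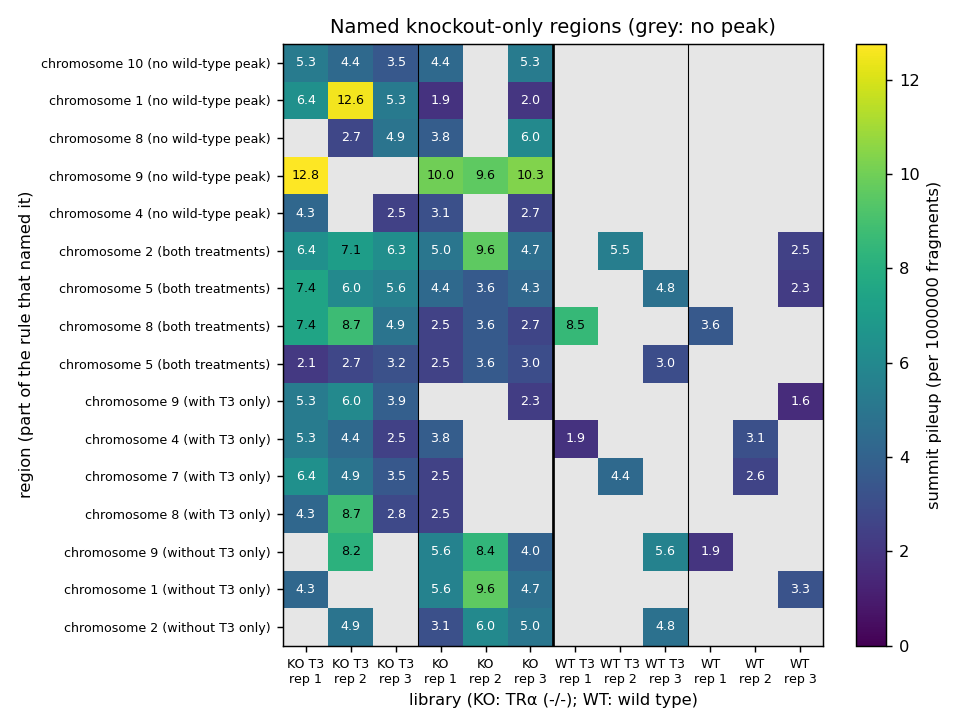
Summit pileup per 1000000 fragments (colour and number) of the 16 regions chosen by rank (rows) in the 12 libraries (columns, TRα (-/-) left of wild type); grey marks a library with no peak. The upper 5 rows have no wild-type peak, and the 4 rows with a peak in all 6 knockout libraries have 1 or 2 wild-type peaks.

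Some members stand out by height and were picked after their values were seen. The highest percentile, 95.0, belonged to chr7:2075074-2075933 with 9, 10 and 37 fragments with T3 and 13 and 22 in replicates 1 and 3 without T3, against 7 in wild-type replicate 3 without T3. The 2 regions above the 90th percentile with no wild-type peak were chr5:106874437-106874856, with 11 and 16 fragments in T3 replicates 1 and 3, and chr9:34230306-34230597, with 12 and 19 in T3 replicates 1 and 2. The highest pileup of any member was 273 fragments, in chr2:5049107-5049871, in replicate 2 without T3. The same region had 5 fragments in replicate 3 without T3 and no peak in the other 10 libraries, so this height was seen in 1 library only.

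Regions on either side of the rule had similar values. The 713 knockout-only regions with 2 wild-type peaks, 1 per treatment, had a median percentile of 53.4, a width of 750 bp and a highest wild-type peak of 2.74 per 1000000 fragments. The 503 knockout-bound regions just outside the rule, with 2 peaks in 1 wild-type condition and none in the other, had 53.2, 719 bp and 2.27. The best supported of these, chr7:116493750-116494616, had 12, 8 and 14 fragments with T3 and 6 and 13 without T3 in the knockout, against 6 and 7 in wild type without T3. The next, chr8:19121734-19122782, had a peak in 2 wild-type T3 libraries with 7 and 3 fragments.

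To see how many regions meet the rule when libraries do not line up, the peaks of each library were moved along the chromosomes by 20 sets of fixed distances and the rule was applied again. As observed, 2785 regions met it, against 3128 on average (2914 to 3353) with all peaks moved, which is 112% of those observed. The many peaks of shared regions are then displaced too and can meet elsewhere. When peaks lying in wild-type-bound regions were taken out first, 609 regions met the rule on average after the move (575 to 626), 21.9% of those observed. Both counts are descriptions and carry no test. With all peaks moved, several class counts tended to fall as the distances grew. From the shortest to the longest distances, regions bound under both treatments went from 34 to 1. Those with 2 wild-type peaks went from 184 to 55, and those with at least 4 knockout libraries from 60 to 10. The means given below thus hold for these 20 sets of distances only.

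The counts for the classes depended on which peaks were moved. Regions bound with T3 only numbered 2054 as observed, against 2444 with all peaks moved (119%) and 543 with wild-type-bound peaks taken out (26.4%). Regions bound without T3 only numbered 584, against 670 (115%) and 65.6 (11.2%). These classes were thus smaller than in the moved lists by the first count and larger by the second. Regions bound under both treatments were more numerous than after either move, with 147 observed, against 14.25 with all peaks moved and 0.2 with wild-type-bound peaks taken out.

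Regions with no wild-type peak numbered 1105, against 2298 with all peaks moved (208%) and 562 with wild-type-bound peaks taken out (50.9%). Those with 1 wild-type peak numbered 967, against 721 (74.6%) and 45.4 (4.69%), and those with 2 numbered 713, against 108 (15.2%) and 1.3. A wild-type peak lay in 60.3% of the observed regions, against 26.4% of those formed with all peaks moved and 7.66% with wild-type-bound peaks taken out. Observed regions with a wild-type peak were thus more numerous than in the moved lists by both counts, and those with none by the second count only.

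By strength the 2 counts ran in opposite directions. With all peaks moved, the count was 69.4% of that observed below the 50th percentile, 129% from the 50th to the 80th, 402% from the 80th to the 90th and 1577% above it. With wild-type-bound peaks taken out it was 29.7%, 13.7%, 6.28% and 2.27% in the same order. By support in the knockout, both counts stayed below the observed number. Regions with at least 3 knockout libraries numbered 1031, against 416 with all peaks moved (40.3%) and 14.95 with wild-type-bound peaks taken out (1.45%). Those with at least 4 numbered 229, against 26.2 (11.4%) and 0.3.

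**Figure D5:**
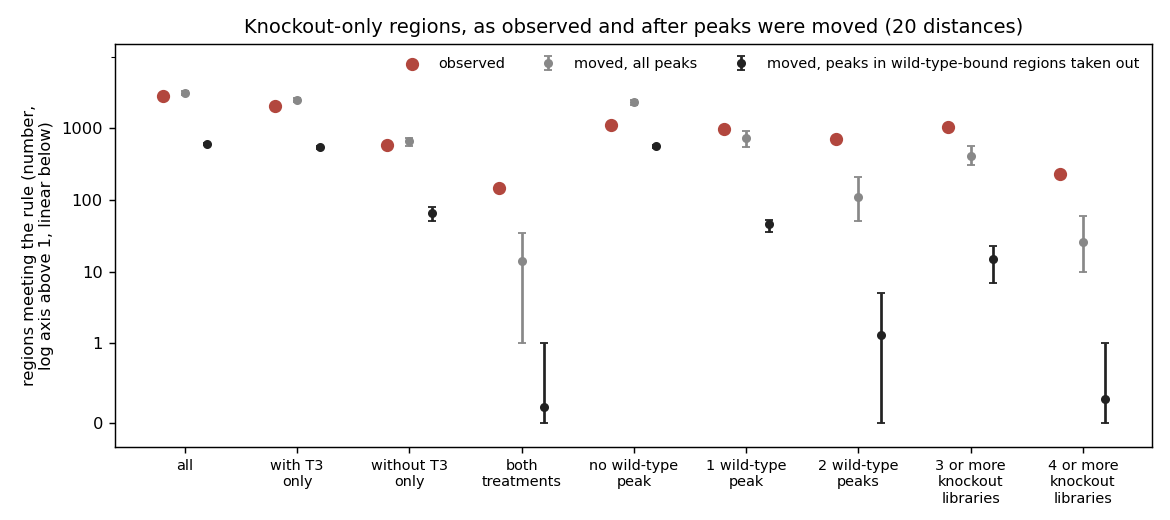
Number of regions meeting the rule (vertical axis, logarithmic above 1) for all knockout-only regions and for 8 classes of them, as observed and after peaks were moved by 20 sets of distances. Moved points are means, with bars from the lowest to the highest of the 20. Regions without a wild-type peak number 1105 as observed, against 2298 with all peaks moved and 562 with peaks of wild-type-bound regions taken out. Those with at least 4 knockout libraries number 229, against 26.2 and 0.3.

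Taken over all strengths, summits of different libraries lay farther apart in the median in knockout-only than in shared regions. Over pairs of T3 libraries with a peak in the same region, the median distance was 141 bp in knockout-only regions (2607 pairs, 22.02% within 50 bp), against 115 bp in shared regions (32.9% within 50 bp). Regions formed by moved peaks, with wild-type-bound peaks taken out, gave 153 bp (17.1% within 50 bp), and with all peaks moved 261 bp (10.5% within 50 bp). Without T3 the medians were 125 bp in knockout-only regions, against 107 bp in shared regions, 147 bp in regions of moved peaks with wild-type-bound peaks taken out and 281 bp with all peaks moved. The upper quartile was smaller in knockout-only than in shared regions, with 266 bp against 288 bp with T3 and 250 bp against 290 bp without T3. At like strength, over pairs of T3 libraries, the order of the medians changed below the 90th percentile. Below the 50th percentile, with 1283 of the 2607 pairs, the median was 146 bp, against 199 bp in shared regions of the same strength. From the 50th to the 80th percentile it was 140.5 bp, against 153 bp, and from the 80th to the 90th it was 83.0 bp, against 92.0 bp. Above the 90th percentile 11 pairs in knockout-only regions gave 78.0 bp, against 28 bp in shared regions. Knockout-only regions with no wild-type peak had a median of 131 bp. Summits in a narrow region cannot lie far apart, so these distances also depend on width. Knockout-only regions were 585 bp wide in the median and those with no wild-type peak 452 bp, against 931 bp for shared regions. The part of width in the distances was not tested.

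Knockout-only regions were found on all 10 chromosomes. Their density was 1.93 to 2.32 per Mb on chromosomes 1 to 8, 3.10 on chromosome 9 and 4.11 on chromosome 10. Their share of the knockout-bound regions varied little, between 17.4% on chromosome 10 and 21.6% on chromosome 1. Within 5 Mb of a chromosome end lay 22.8% of knockout-only regions, against 36.4% of shared regions, 27.3% of the regions bound in wild type only and 10.9% of all merged regions. The nearest wild-type-bound region was 13.5 kb away in the median, 42.8% had one within 10 kb and 3.05% within 500 bp. For the mirror set, the nearest knockout-bound region was 15.6 kb away in the median, and 39.1% had such a region within 10 kb. Between neighbouring knockout-only regions the median distance was 102 kb, with 6.97% within 10 kb. Of the 11181 shared regions 42.2% lay within 10 kb of another shared region, and of the 8108 mirror regions 24.9% of another mirror region. Such distances shrink as a set grows, and the 2785 knockout-only regions are the smallest set. Whether they lie closer than randomly placed regions was not tested. Genes and DNA sequence at these regions were not analysed here.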

How the data were processed

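TR ChIP-seq of 12 hind limb libraries was analysed from peak lists. For the authors' alignment Bowtie2 2.3.4.1 and the v9.1 assembly of Xenbase were used, duplicates were dropped with Samtools, and MACS2 2.1.1.20160309 then called peaks library by library, with no input control and with q limited to 0.05. Each deposited peak carries coordinates, a pileup signal at the summit in fragments (unscaled), the −log10 of its p-value and of its q-value, and a fold enrichment, the ratio to background around it. Depth is the number of fragments after filtering in the file headers. Groups and replicate numbers came from the sample labels.

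Regions were merged and counted with Python 3.11.15 (numpy 2.4.6, pandas 2.3.3) as the report describes, and merging was tested on simulated lists. Counts per library are given without a test, since the same peak calls chose the regions and the libraries are technical replicates. For the moved lists, each library was displaced by its position in the list of libraries times 250 kb times 1 to 20, wrapping at chromosome ends. Regions were named by rank on the number of knockout libraries with a peak and then on the mean q value percentile over the 6 knockout libraries (0 without a peak): the first 5 with no wild-type peak, 4 per treatment class, 3 with 2 wild-type peaks and 2 just outside the rule. The members, lists and rules were chosen with earlier results of these data known. Alternatives were stricter q values, fold enrichment or pileup of at least 4, peaks within 500 bp merged, 50% of a region covered, 1 or all 3 libraries required, equal numbers of peaks, a replicate block and leaving out libraries. No genome or annotation of the v9.1 build was used here, so genes and sequences were not analysed.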

Additional observations from a re-analysis of the deposited data

How the results depend on the processing

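The number of knockout-only regions, of those with no wild-type peak and of those bound only with T3, 2785, 1105 and 2054, moved with the threshold for a peak. They were 1338, 384 and 888 at q below 0.001, 1583, 488 and 1011 at a fold enrichment of at least 4, 1820, 583 and 1226 at a pileup of at least 4, 65873, 65873 and 48563 where 1 library sufficed, 842, 37 and 714 where all 3 were required, and 1178, 468 and 468 with all lists cut to 4645 peaks. At q below 0.01 the regions with no wild-type peak numbered 665. The number of libraries required applies to wild type too. Where all 3 were required, regions with 2 peaks in a wild-type condition therefore also counted as knockout-only. Of those 842 regions, 37, 88 and 167 had a peak in 0, 1 and 2 wild-type libraries, and the others in more. Merging peaks up to 500 bp apart, or asking for 50% of a region to be covered, kept all 3 counts within 1.5 times. Leaving out single libraries, or a replicate number in all conditions, gave 1471 to 3712 knockout-only regions, 462 to 1348 with no wild-type peak and 740 to 2610 bound only with T3. Both remaining libraries of the condition must then have a peak. Leaving out a knockout library can thus only lower the number of knockout-only regions (1471 to 2678). Leaving out a wild-type library can only raise it (3080 to 3712).

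The difference between T3 and control in knockout-only regions per knockout library stayed positive, between 343.5 and 1325 regions with libraries left out, and was -68.3 with equal numbers of peaks. Per wild-type library it lay between -284.8 and 97.2 with libraries left out and was 2.33 with equal numbers of peaks. It has no value where 1 library suffices, since such regions have no wild-type peak. Leaving out a wild-type library lets in regions with a peak in that condition, so this range follows in part from the rule. Pairing by replicate number as a block cannot change the mean differences, 958 regions and -38.3, and so is no check of them. Deviations of same-numbered libraries correlated between -0.00159 and 0.0535, so the numbers were not taken as pairs.

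Depth limits these counts: the knockout libraries without T3 were shallower than the wild-type ones, a peak can rest on 2 fragments, and lists without reads cannot show signal under the threshold. The 3 technical replicates give no error between animals.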
